A study of Mus musculus with 12 samples.

Results

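The cytoplasmic ribosome of a mouse cell is built from ribosomal RNA and one copy each of a set of ribosomal proteins, named Rpl for the large (60S) subunit and Rps for the small (40S) subunit. Genes whose name on the array starts with Rpl or Rps, with the name of a cytoplasmic ribosomal protein, gave 80 genes of the 21179 named genes of the array, measured by 134 of its 41174 probes. Of these genes, 48 code for 60S proteins, the P-stalk proteins Rplp0, Rplp1 and Rplp2 included, and 32 code for 40S proteins, Rpsa included. Rpl3l, Rpl39l and Rps27l are additional copies with an l suffix, and the other 77 are the standard subunit genes. The rule itself reads names, not values, but the family was taken up with earlier results of these data known. It leaves out genes of other names such as Fau, which codes for a fused ribosomal protein, and the genes of the mitochondrial ribosome.

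RNA came from mouse embryonic stem (ES) cells after 3 days of treatment with retinoic acid, which drives these cells to differentiate, and from undifferentiated ES cells. There were 3 biological samples per group, each hybridised to 2 technical arrays, so 12 arrays of 1 colour (Cy3) entered. The labels name no cell line, sex, passage, genotype or culture medium, and do not say whether feeder cells or aggregation were used. They call the samples biological replicates without saying what was separate between them. Values are log2 of the quantile-normalized intensity plus 50, called log2 intensity below, and differences are retinoic acid minus undifferentiated on that scale. Calls use limma with Benjamini-Hochberg adjustment over 15326 genes, at an adjusted p under 0.05. In RNA of whole cultures, fewer cells of a type and less RNA per cell cannot be told apart, and an array scaled to a common distribution cannot show a change in the total amount of ribosomal protein mRNA per cell.

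Ribosomal protein mRNAs are among the most abundant of a growing cell, and their amounts are kept in balance so that the subunits can be assembled. Most begin with a C followed by an unbroken run of pyrimidines, the 5′ terminal oligopyrimidine (TOP) element, through which the kinase mTOR and the RNA-binding protein LARP1 control their translation. Translational control of this kind alters the use of an mRNA and need not alter its amount, which is what an expression array measures. ES cells divide fast, and several ribosomal protein genes have close copies that are used mainly in one tissue, such as Rpl3l in muscle and heart and Rpl39l in the male germ line.

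The sequence around the start site is shown for 5 members, to set the copy Rpl39l beside its partner Rpl39, and to show the run of pyrimidines in Rps24 and Rps9, which return below, and in Rpl35, a member with a long run. The sequences are those of RefSeq on GRCm38.p6, 5′ to 3′ on the gene's own strand, from 30 bases before the annotated start to 20 after it, and the capitals mark the longest unbroken run of C and T within 20 bases of the start. Rpl39l lies at chr16:10170198-10170247 on the + strand, Rpl39 at chrX:37085203-37085252 on the - strand, Rps24 at chr14:24490648-24490697 on the + strand, Rps9 at chr7:3704011-3704060 on the + strand and Rpl35 at chr2:39005112-39005161 on the - strand.
Rpl39l: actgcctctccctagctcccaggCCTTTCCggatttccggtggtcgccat
Rpl39: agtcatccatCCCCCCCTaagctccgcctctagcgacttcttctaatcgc
Rps24: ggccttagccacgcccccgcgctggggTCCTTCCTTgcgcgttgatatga
Rps9: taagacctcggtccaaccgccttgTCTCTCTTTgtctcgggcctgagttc
Rpl35: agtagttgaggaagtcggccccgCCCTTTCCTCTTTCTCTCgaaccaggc
The run was 7 bases long in Rpl39l, 8 in Rpl39, 9 in Rps24 (of its 2 annotated starts, the one with the longer run is shown), 9 in Rps9 and 18 in Rpl35. Counted from the annotated start, the marked runs of Rpl39l (from -7) and Rpl39 (from -20) ended before it, outside the annotated transcript. Rpl39 held another run of 8, cttcttct, after its start and inside the transcript. Of equal runs only the first is marked, so its longest run is not upstream alone. The marked Rpl39 run was also cut at the edge of the searched bases, since a t precedes it. The runs of Rps24 (from -3), Rps9 (from -6) and Rpl35 (from -7) crossed the start. The RefSeq table held 72 promoters for 60 of the 80 members. A run of at least 8 C or T letters within 20 bases of the start, on the gene's strand, stood in 41.7% of them (30), against 16% of all 32851 promoters of the table. The letters CCGGAAG on either strand (CTTCCGG on the other), the core recognised by ETS-family factors, stood in 37.5% of the members' windows of 250 bases before to 50 after the start (27 promoters), against 8.86% of all promoters. Both Rpl39l and Rpl39 had a match. These are matches of letters, not sites shown to be used.

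Most ribosomal protein genes had spots among the brightest of the array. The brightest spot of an array read between 42952 and 49949, and 73 of the 80 members read over 40000 on at least 1 array. The brightest member, Rpl41, which codes for the smallest 60S protein, read 42763 and 44752 on the technical arrays of retinoic acid replicate 1, 43378 and 42416 on those of replicate 2, and 46879 and 47410 on those of replicate 3. In undifferentiated cells it read 44503 and 43846 in replicate 1, 43314 and 41666 in replicate 2, and 48088 and 46371 in replicate 3. The groups overlapped, and both samples of replicate number 3 read highest, as did the brightest spots of those arrays. The limit of 40000 was set here, since the tables carry no saturation flag. Of the 73 members, 13 exceeded it only on arrays of replicate number 3 and read 15899 to 39908 on the other 8 arrays. For them the limit bears on those samples only. Of these 13, Rpl28 exceeded it on the retinoic acid arrays (43006 and 43265) but not on the undifferentiated arrays (36860 and 35550) of replicate number 3.

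**Figure D1:**
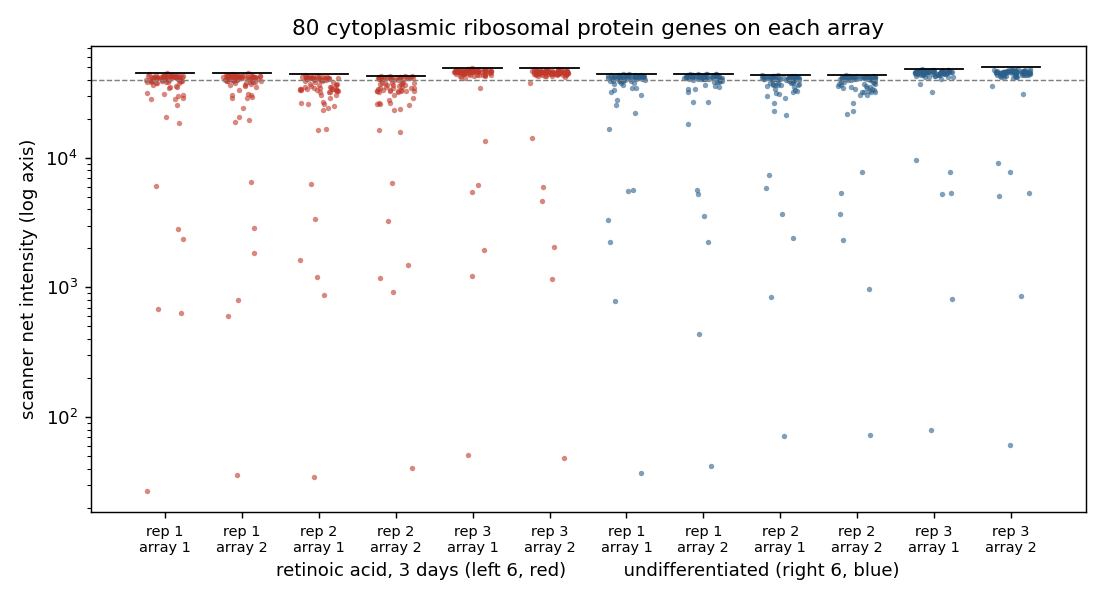
Scanner net intensity (log axis) of the 80 ribosomal protein genes on each of the 12 arrays, 1 point per gene, with retinoic acid at left in red and undifferentiated at right in blue. Black bars give the array's brightest spot and the dashed line stands at 40000; most points lie in a band under the bar, and a few genes lie far below it on every array.

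Among all 15326 genes tested, 31 read over 40000 on all 12 arrays, and 24 of these 31 were ribosomal protein genes. Another 199 genes did so on 1 to 11 arrays, 49 of them members. Among the 24 were Rpl5, Rpl10, Rpl22, Rpl41, Rplp0 and Rplp2 of the 60S subunit and Rps12, Rps20 and Rps28 of the 40S subunit. For the 24 genes every array of both groups exceeded 40000 and no fold is given; their measured log2 differences spanned only -0.035 to 0.037. In the class with 1 to 11 arrays over 40000 the differences spanned -0.19 to 0.15.

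The number of members over 40000 differed more between samples of a group than between the groups. After retinoic acid it was 43 and 44 on the arrays of replicate 1, 28 and 30 on those of replicate 2, and 73 and 73 on those of replicate 3. In undifferentiated cells it was 53 and 58 in replicate 1, 44 and 44 in replicate 2, and 72 and 72 in replicate 3. The range after retinoic acid encloses that of the undifferentiated arrays. On all 6 undifferentiated arrays but not all 6 retinoic acid arrays, 13 members exceeded 40000, and 0 did so the other way round. Whole arrays differed too. Over all probes, members included, 84 and 90 exceeded 40000 in retinoic acid replicate 1, 52 and 57 in replicate 2, and 327 and 304 in replicate 3. In undifferentiated cells it was 122 and 124, 74 and 78, and 283 and 282. So the 13 are not read as particular to the members. The largest difference among the 13 was that of Rpl18, a 60S protein, at -0.19 (limma adjusted p = 0.42). Arrays of both groups exceeded 40000 for it, so no bound on its fold is given. Rpl18 read 38211 and 18809 on the arrays of retinoic acid replicate 1, 32491 and 37487 on those of replicate 2, and 46035 and 45735 on those of replicate 3. It read 42025 to 46286 on the undifferentiated arrays. The technical arrays of retinoic acid replicate 1 differ more from each other for Rpl18 than the 2 group means do.

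By the brightest probe of each gene, 0 of the 80 members were called higher after retinoic acid, where 18.7% of all tested genes were, and 1 was called lower, where 13.6% were. An unadjusted p under 0.05 was reached by 1 member, against 42.8% of all genes. The values of the 2 groups did not overlap for 11 members, against 46.6% of all genes. The median difference was -0.0049 over the members and 0.0035 over all genes; it was -0.0088 over the 60S genes and 0.0025 over the 40S genes. All 80 members passed the filter on dim probes. With 73 of them over 40000 on at least 1 array, and 24 on all 12, these counts do not show that the mRNAs kept their amounts.

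The 1 call was Rpl39l, an autosomal copy of the X-linked 60S gene Rpl39. Its log2 intensity was 9.61, 10.59 and 9.56 in retinoic acid replicates 1 to 3, against 12.74, 12.03 and 12.59 in undifferentiated replicates 1 to 3. The highest retinoic acid sample lay below the lowest undifferentiated sample. The difference was -2.53 ± 0.32 (SE, n = 3 samples per group; 95% interval -3.26 to -1.79; limma adjusted p = 0.000766). On the scanner's scale the spot read 602 to 1227 after retinoic acid, against 3656 to 7808 in undifferentiated cells, far from the top. With 1 in place of 50 added before log2, the difference was -2.59, so the undifferentiated level was 6.03-fold that after retinoic acid.

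A second, dimmer Rpl39l probe gave 6.76, 7.04 and 6.52 after retinoic acid, against 8.44, 8.09 and 8.34 in undifferentiated cells. These groups did not overlap either, and the probe fell by 1.52 ± 0.19 (SE; limma adjusted p = 0.00112 over all probes). With 1 added before log2 its difference was -2.16, or 4.47-fold. Both probes carry the same RefSeq accession. Leaving out each sample in turn, the brighter probe's difference stayed between -2.86 and -2.35 and the dimmer one's between -1.65 and -1.39, each called in all 6 fits. Adding 50 shrinks the differences of dim spots, so the sizes given by the 2 probes are not set against each other.

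Rpl39, the partner, read 33822 to 46246 after retinoic acid, against 33515 to 45791 in undifferentiated cells, with log2 intensities of 15.30, 15.31 and 15.33 after retinoic acid and 15.32, 15.21 and 15.35 in undifferentiated cells. The groups overlapped, and the difference was 0.02 (95% interval -0.30 to 0.34; limma adjusted p = 0.94). It exceeded 40000 on some arrays of both groups, and the difference between partner and copy was not tested.

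**Figure D2:**
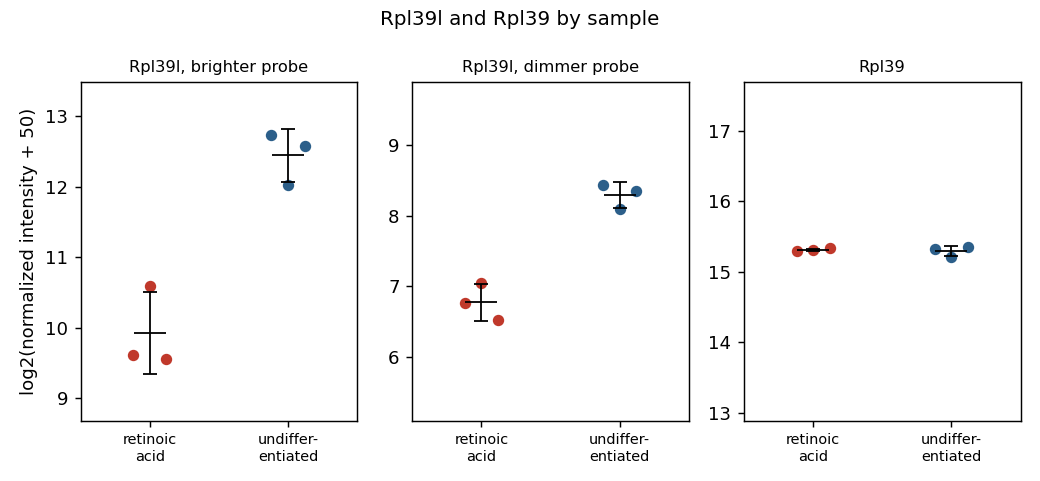
Log2 of normalized intensity plus 50 for both probes of Rpl39l and the probe of Rpl39, 1 point per sample (mean of 2 technical arrays), with the mean and SD of 3 samples; retinoic acid is at left in each panel. The panels have the same span but not the same offset: the Rpl39l groups differ by -2.53 and -1.52, and the Rpl39 groups overlap.

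The other copies with an l suffix gave no call. Rpl3l, a copy of Rpl3 known from muscle and heart, gave 6.38, 6.66 and 6.32 after retinoic acid, against 6.71, 7.27 and 6.76 in undifferentiated cells. The groups did not overlap, and the difference of -0.46 (95% interval -0.93 to 0.0040) had a limma adjusted p of 0.12. It was the dimmest member, reading 26.9 to 50.9 after retinoic acid and 36.8 to 79.4 in undifferentiated cells, not far above the negative control spots. Rps27l, a 40S copy known as a target of p53, gave 14.97, 15.04 and 15.15 after retinoic acid, against 14.85, 14.91 and 14.95 in undifferentiated cells. Its groups did not overlap, and its difference was 0.15 (limma adjusted p = 0.49). It read over 40000 on the 4 arrays of replicate number 3 and on no other. The partners Rpl3 and Rps27 differed by -0.06 and 0.0023, and both exceeded 40000 on some arrays. Of the copies that the rule did not take, Rpl22l1 differed by -0.00072, Rpl7l1 by -0.30, Rpl36al by -0.14 and Rps4l by 0.26, and none was called. Their calls rest on the scaling: with arrays scaled to their 75th percentile or median, Rpl7l1 (-0.68 and -0.65) and Rpl36al (-0.67 and -0.63) were called lower, and the differences of Rps4l (-0.14 and -0.11) and Rps27l (-0.34 and -0.30) turned negative without a call.

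Besides Rpl39l and Rpl3l, 5 members never exceeded 40000. Rps19, a 40S protein whose human gene is mutated in Diamond-Blackfan anaemia, gave 14.73, 14.49 and 14.49 after retinoic acid, against 14.33, 14.75 and 14.52 in undifferentiated cells, a difference of 0.04 (95% interval -0.36 to 0.43). The groups overlapped fully. Rpl14 gave 11.89, 12.10 and 11.99 after retinoic acid, against 12.08, 12.60 and 12.07 in undifferentiated cells, a difference of -0.26 (95% interval -0.70 to 0.18). Here undifferentiated replicate 2 stood alone at the high end. Rpl31 differed by -0.27 (95% interval -0.83 to 0.28) by its brighter probe and by 0.018 by its other probe. Rpl27a, another 60S gene, differed by 0.24 (95% interval -0.12 to 0.60). Rpl21 differed by 0.28 (95% interval -0.21 to 0.78) by its brighter probe and by -0.36 by its other probe, so its probes point in opposite directions. None of the 5 was called, and the intervals allow changes of up to 0.78 higher or 0.83 lower. With arrays scaled to their 75th percentile or median, Rps19 (-0.38 and -0.35) and Rpl27a (-0.16 and -0.12) turned negative without a call. The brighter Rpl21 probe stayed positive (0.18 and 0.22).

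The remaining members named for their roles exceeded 40000 on at least some arrays, and none was called by its brightest probe. The P-stalk proteins Rplp0, Rplp1 and Rplp2, which recruit translation factors, differed by -0.01, 0.04 and -0.04. Rpl5 and Rpl11, which with 5S RNA bind the p53 regulator Mdm2 when free of ribosomes, differed by -0.0099 and 0.02 by their brightest probes. Rps6, the 40S protein phosphorylated by S6 kinase, differed by -0.01, and read 28719 to 41721 after retinoic acid, against 31402 to 41896 in undifferentiated cells. Rps3, at the mRNA entry of the 40S subunit, differed by 0.01. Rps27a, made as a fusion with ubiquitin, differed by -0.02, and Rpl10 and Rpl22 by -0.02 and 0.02. Rps4x, an X-linked 40S gene, differed by -0.06. Rpsa, also known as the laminin receptor, differed by 0.14. Rps20 and Rps12, like Rpl41, Rplp2 and Rps28 among the 5 brightest members, differed by 0.02 and -0.01.

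Single probes gave a second view, since 43 members had 2 to 4 probes and 37 had 1. Of the 134 probes, 99 exceeded 40000 on some array. Probes were split by the accession the array file gives them: a RefSeq mRNA, or another accession, here a cDNA clone, an expressed sequence tag or an Ensembl transcript. This split was chosen after the values had been seen. Among the tested probes that never exceeded 40000, 22 probes of 17 genes had a RefSeq accession, and 2 of them, both Rpl39l, were called lower, where 12% of all such probes of the array were. Their median difference was -0.17, against -0.03 over all such probes. Another 10 probes of 9 genes had another accession, and 6 of these were called lower, where 10.2% of all such probes were. Their median difference was -0.92, against -0.12, and 9 of the 10 were below 0. None of either class was called higher, where 16.1% and 7.04% were. These are descriptions of probes chosen after their values were seen, and the 10 are not independent, since 2 belong to Rps24.

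**Figure D3:**
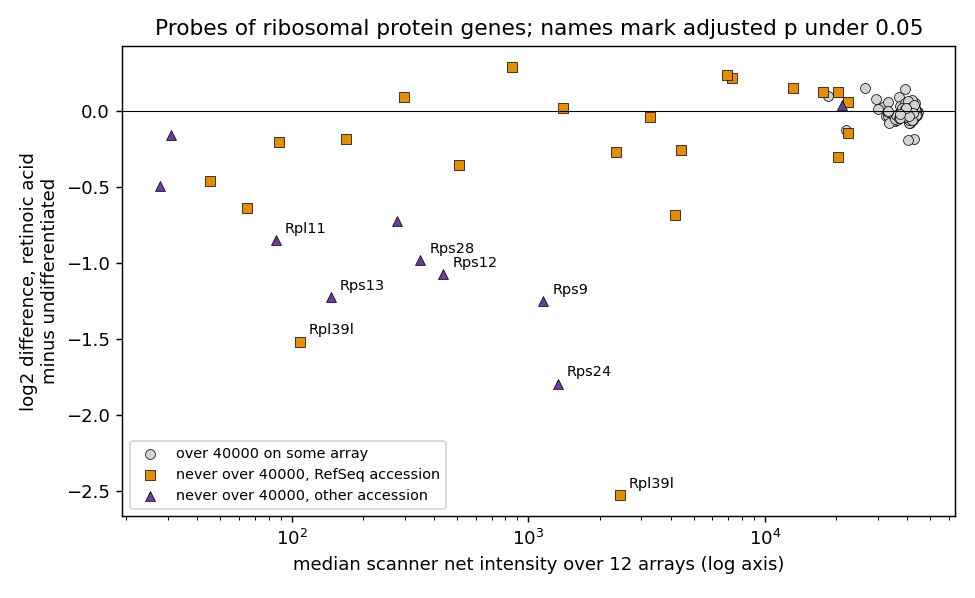
Log2 difference (retinoic acid minus undifferentiated) of every tested probe of a ribosomal protein gene against its median scanner intensity over 12 arrays (log axis). Grey points, over 40000 on some array, lie near the zero line at the right; the named points, all below zero and all far from the top of the scale, are the 8 probes called lower (limma adjusted p under 0.05 over all probes).

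Rps24, a 40S protein whose human gene is also mutated in Diamond-Blackfan anaemia, had the largest fall among the 6. This probe, named by a cDNA clone, gave 9.51, 10.21 and 9.39 after retinoic acid, against 11.08, 11.54 and 11.88 in undifferentiated cells. The groups did not overlap, and it fell by 1.80 ± 0.28 (SE; limma adjusted p = 0.0034), or 3.63-fold with 1 added before log2. A second clone probe of Rps24 gave 8.09, 8.46 and 7.83 after retinoic acid, against 8.69, 9.28 and 8.59 in undifferentiated cells. It pointed the same way without overlap, at -0.73, and was not called (limma adjusted p = 0.067). The brightest Rps24 probe read over 40000 on 11 arrays and differed by -0.03.

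Rps9, a 40S protein that binds ribosomal RNA early in assembly, had a probe named by an Ensembl transcript. It gave 10.10, 9.21 and 9.60 after retinoic acid, against 10.59, 11.03 and 11.06 in undifferentiated cells, and fell by 1.25 ± 0.25 (SE; limma adjusted p = 0.0099). Its bright probe differed by -0.0034. Rps13, another 40S protein, gave 7.04, 7.71 and 6.82 after retinoic acid, against 8.13, 8.46 and 8.65 in undifferentiated cells by a clone probe, and fell by 1.23 (limma adjusted p = 0.012). This clone probe was dim, reading 72.8 to 131 after retinoic acid and 161.5 to 423 in undifferentiated cells. With 1 added before log2 its difference was -1.63. The bright Rps13 probe differed by 0.02. In each of these genes every retinoic acid sample of the dim probe lay below every undifferentiated one, while the groups overlapped by the bright probe, which exceeded 40000 on the arrays of replicate number 3 alone.

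Rps12, a 40S protein, gave 8.72, 8.32 and 8.42 after retinoic acid, against 9.44, 9.28 and 9.97 in undifferentiated cells by its clone probe, and fell by 1.08 (limma adjusted p = 0.010). Rps28, a small 40S protein, gave 8.28, 8.43 and 8.23 after retinoic acid, against 8.85, 9.26 and 9.77 in undifferentiated cells, and fell by 0.99 (limma adjusted p = 0.020). Neither pair of groups overlapped. Rpl11 gave 6.78, 7.29 and 6.64 after retinoic acid, against 7.42, 8.18 and 7.66 in undifferentiated cells, and fell by 0.85 (limma adjusted p = 0.045). Here the highest retinoic acid sample and the lowest undifferentiated sample lay close together. This Rpl11 probe was dim, reading 49.9 to 90.1 after retinoic acid and 84.3 to 205 in undifferentiated cells. The negative control limits of the arrays were 8.5 to 51.6. With 1 added before log2 its difference was -1.25. The remaining 3 probes of the class, for Rplp2, Rps4x and Rps19, differed by -0.50, -0.16 and 0.04 and were not called. Clone probes of Rps2 and Rps6 were among those too dim to be tested.

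**Figure D4:**
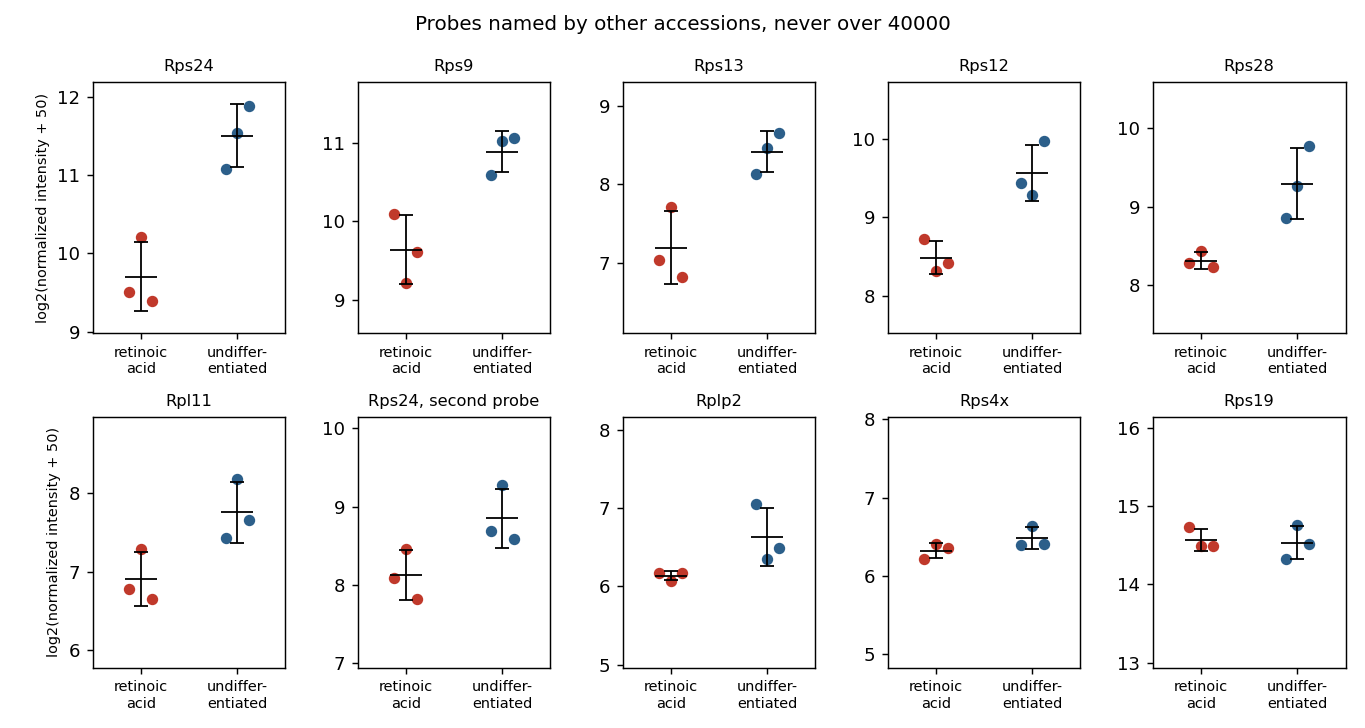
Log2 of normalized intensity plus 50 for the 10 tested probes with an accession other than RefSeq that never exceeded 40000, 1 point per sample (mean of 2 technical arrays), with the mean and SD of 3 samples and retinoic acid at left. All panels have the same span; in the first 6, called lower, no retinoic acid sample reaches an undifferentiated one, and in the last 2 (Rps4x and Rps19) the groups overlap.

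Of these probes, those of Rps24, Rps9 and Rps12 were called in all 6 fits that left out 1 sample, with differences of -2.05 to -1.60 for Rps24, -1.48 to -1.04 for Rps9 and -1.22 to -0.87 for Rps12. Rps13 and Rps28 were called in 4 of the 6, and lost the call without retinoic acid replicate 1 and without replicate 3 of that group. Rpl11 was called in 2 of the 6 (-1.04 to -0.64). The files do not say where in the transcript a probe lies, so a change in one transcript form, a change in the gene's total mRNA and signal from another transcript cannot be told apart. Of the 7 genes with a called probe, Rpl39l alone was called by its brightest probe. With arrays scaled to their median the Rpl11 probe lost its call and the dimmer probe of Rpl23 (-0.998) gained one, and with 75th percentile scaling the dimmer probes of Rpl23 (-1.03) and Rpl7 (-0.56) gained one.

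Among the RefSeq probes that never exceeded 40000, the next largest falls were those of Rpl23, Rps15a and Rpl3l. Their order depends on the added value: with 1 added before log2 they were -0.70, -1.05 and -0.89. Rpl23, a 60S protein that can bind Mdm2, gave 12.13, 11.68 and 11.38 after retinoic acid, against 12.35, 12.28 and 12.63 in undifferentiated cells by its dimmer probe. The groups did not overlap, and the difference was -0.69 (limma adjusted p = 0.058 over all probes). When each gene was instead represented by its brightest probe never over 40000, 25 members remained, 8 were called lower and none higher, and Rpl23 was the eighth (limma adjusted p = 0.045). These are largely the dim probes seen beforehand, and the share over all genes in this setting is not given. Over single probes of the array never over 40000, 12% with a RefSeq accession and 10.2% with another were called lower. The shares called higher were 16.1% and 7.04%. Rps15a, a 40S protein, differed by -0.64 (limma adjusted p = 0.10). In the other direction, Rpl22 had a second probe at 0.22 and Rpsa one at 0.09. The second Rpl22 probe gave 13.04, 13.04 and 13.17 after retinoic acid, against 12.56, 13.49 and 12.57 in undifferentiated cells, and was called higher, at 0.52, without undifferentiated replicate 2 (limma adjusted p = 0.038). The 3 dimmer probes of Rpl29, a 60S protein, differed by 0.06, 0.12 and 0.15, with undifferentiated replicate 3 lowest in each. With arrays scaled to their 75th percentile or median, the second Rpl22 probe (-0.18 and -0.14) turned negative without a call. So did the 3 Rpl29 probes, at -0.34, -0.30 and -0.26 with the 75th percentile and -0.31, -0.26 and -0.22 with the median. The Rpsa probe stayed positive, at 0.09 and 0.12.

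Factors that assemble the ribosome were called in 1 direction. Of 22 tested factors of the large subunit, 12 fell, 0 rose and 10 were not called, where 13.6% of all genes fell and 18.7% rose, with a median difference of -0.72 against 0.0035 over all genes. Ebna1bp2, which acts in processing of 60S precursors, gave 11.84, 12.68 and 12.25 after retinoic acid, against 13.72, 13.91 and 13.90 in undifferentiated cells, and fell by 1.59 (limma adjusted p = 0.0014). Tma16 fell by 1.34 (limma adjusted p = 0.00047), and Rpf2, which in yeast helps to bring 5S RNA with Rpl5 and Rpl11 into the 60S subunit, fell by 1.06 (limma adjusted p = 0.049). The Rpf2 groups did not overlap, but retinoic acid replicate 2, at 12.39, lay close to the lowest undifferentiated sample, at 12.54.

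Of 13 tested factors of the small subunit, 6 fell, 0 rose and 7 were not called, where 13.6% of all genes fell and 18.7% rose; their median was -0.67. Nsa2 (0.18), Eif6 (0.00012) and Tsr2 (0.05) of the 2 lists had differences above 0. Riok2, a kinase of late 40S maturation, fell by 1.002 (limma adjusted p = 0.0063), Tsr1 by 0.95 (limma adjusted p = 0.0034) and Dimt1, a methyltransferase of the 40S ribosomal RNA, by 0.88 (limma adjusted p = 0.0055). None of the factors in either list exceeded 40000. Leaving out 1 sample, the number called lower ranged from 9 to 12 for the large subunit, and from 3 to 6 for the small subunit. It was 3 without retinoic acid replicate 1, without replicate 3 of that group, and without undifferentiated replicate 1.

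**Figure D5:**
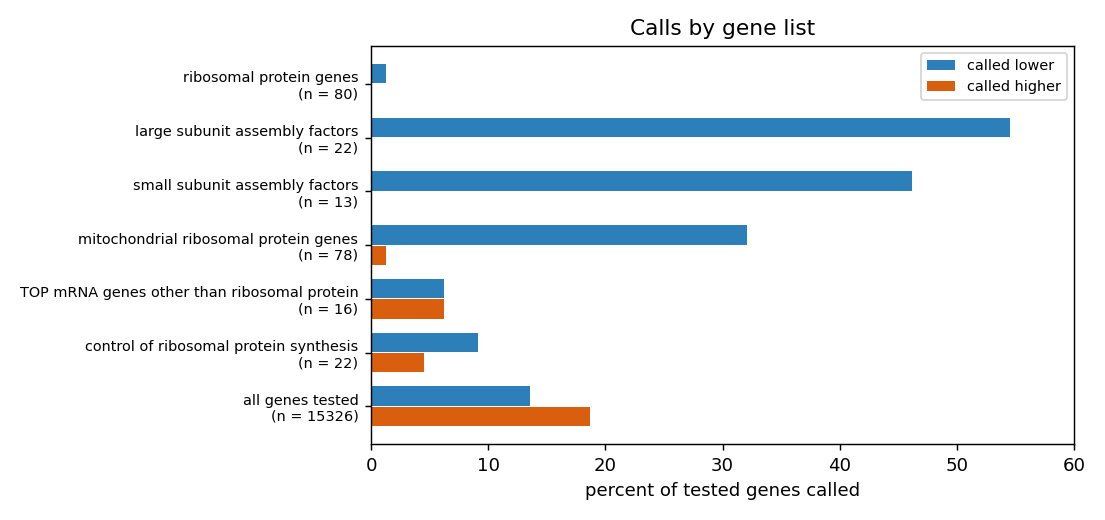
Percent of tested genes called lower (upper bar) and called higher (lower bar) after retinoic acid, by limma adjusted p under 0.05, in 6 gene lists and over all 15326 genes tested. Of the ribosomal protein genes 1.25% were called lower and 0% higher, against 54.5% and 46.2% lower in the lists of assembly factors and 13.6% lower over all genes; 73 of the 80 ribosomal protein genes exceeded 40000 on some array.

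Proteins of the mitochondrial ribosome, a separate ribosome with its own genes, gave 25 lower and 1 higher of 78 tested, where 13.6% of all genes were lower and 18.7% higher, with a median of -0.30. The largest falls were those of Mrpl2 (-1.35), Mrpl15 (-1.29) and Mrpl47 (-1.18), and the rise was that of Mrpl54 (0.67). None of the 78 exceeded 40000. The number called lower was 11 without retinoic acid replicate 1, 11 without replicate 3 of that group and 13 without undifferentiated replicate 1, against 25 with all samples.

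Few genes that share the TOP element or are tied to its control were called. With 16 and 22 genes tested, each share below rests on 1 or 2 genes and is not read as differing from that of all genes. Of the other TOP genes 6.25% were called lower and 6.25% higher, and of the control genes 9.09% and 4.55%. Over all genes 13.6% were called lower and 18.7% higher. Of 16 other TOP genes, such as translation factors, 7 of which also exceeded 40000, Eif2s3x fell by 0.82 (limma adjusted p = 0.016) and Vim rose by 1.20 (limma adjusted p = 0.037). With arrays scaled to their 75th percentile or median 0 of the 16 were called higher, and 0 were called in either direction without retinoic acid replicate 1, without replicate 3 of that group or without undifferentiated replicate 1. Of 22 genes listed for the control of ribosomal protein synthesis, genes named as S6 kinases included, 2 fell and 1 rose. Larp1, the repressor of TOP mRNA translation, gave 12.45, 12.26 and 12.40 after retinoic acid, against 12.98, 13.01 and 12.94 in undifferentiated cells, and fell by 0.61 (limma adjusted p = 0.013). Rps6ka5, a kinase named with the S6 kinases, fell by 0.56 (limma adjusted p = 0.023), and Rps6ka3, its relative RSK2, rose by 2.80 (limma adjusted p = 0.00034). The number called lower in this list was 0 without retinoic acid replicate 3 and 1 without replicate 1 of that group. These Rps6ka genes carry Rps in their names but code for kinases, not ribosomal proteins. Of 5 genes of the p53 pathway tied to free ribosomal proteins, Mdm4 fell by 0.52 (limma adjusted p = 0.045), and 0 were called lower in each of the 6 fits that left out 1 sample. Fau and the ribosome-associated Rack1 differed by 0.08 and 0.05, and both exceeded 40000 on some arrays.

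Marker genes moved with the labels: all 7 pluripotency genes fell (Pou5f1 at -4.72, Nanog at -3.67), and 5 of 8 retinoic acid genes rose (Cyp26a1 at 8.04, Crabp2 at 6.17). The other retinoic acid genes, Hoxb1 (-0.48), Stra6 (-0.27) and Rarb (-0.27), were not called, and Rarb was called lower, at -0.63, with 75th percentile scaling. Genes that also mark feeder fibroblasts were called in both directions: 8 of 13 tested rose and Thy1 fell by 2.07, where 18.7% of all genes rose and 13.6% fell. Their summed normalized intensity was 37310 to 45988 after retinoic acid, against 9914 to 20289 in undifferentiated cells. This sum rests mainly on Tagln, Acta2 and Vim, the brightest after retinoic acid (mean log2 intensity 13.70, 13.69 and 13.43). Of these Acta2 was not called, and Vim is also the TOP gene called higher above. Of the defining collagens, Col1a1 was not called and Col1a2 rose by 3.39. Of the 15 markers listed, Lum and Postn were too dim to be tested. Several of these genes are also active in differentiating cells, and their part in the results on ribosomal protein genes was not tested. Technical arrays of a sample correlated at 0.987 to 0.997. Between 53.8% and 85% of an array's probes exceeded its negative control limit, and both samples of replicate number 3 had brighter arrays than the rest.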

How the data were processed

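The members and gene lists were chosen with earlier results of these data known. Per the file headers, the deposited scanner tables give each spot's net mean intensity on a linear scale, so background had been taken off by the authors' software; how it did so is not given. The authors also deposited a table of processed intensity, whose scale is linear and whose columns correlate at 0.999997 or more with the values used here; R 2.15.0 and limma are the tools in the submitters' processing notes. The log2 values were computed here from the deposited intensity: quantile normalization over 12 arrays, 50 added, log2, technical arrays averaged per sample. A gene was represented by its brightest probe and tested when it exceeded the 95th percentile of 27 negative control spots on at least 4 of 6 arrays of either group. limma 3.58.1 in R 4.3.3 (lmFit, eBayes, two-sided) fitted all 15326 genes, with p-values adjusted over them, checked on simulated data. For spots at the top of the scale the errors come mainly from the variance shared over genes. Members named were those called, the 5 brightest and dimmest, a list of known roles, l-suffix copies with partners, and genes whose probes differed by 1 or more; Rpl18, Rpl4, Rpl23, Rps15a, Rpl29, Rpl27a, Rps28's and Rpl11's dim probes were chosen after their values were seen. Genes were named by the files' symbols, updated through RefSeq accessions. The number of arrays limits the precision. Replicate numbers are shared between groups, but the deviations of same-numbered samples correlated at -0.060, 0.217 and 0.066, so they were not treated as pairs. Some genes are not reported here.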

Additional observations from a re-analysis of the deposited data

How the results depend on the processing

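The count of ribosomal protein genes called lower was 1, Rpl39l, in the main setting. It was 2 with arrays scaled to their 75th percentile (Rpl4 added, at -0.56, limma adjusted p = 0.040), 5 with the mean of a gene's probes, 6 with the second brightest probe, 8 with every probe by itself and 8 with the brightest probe never over 40000. The last 4 are made of the dim probes described above. With the second brightest probe 6 of 78 members were called lower, where 1708 of all 13658 genes tested were. With 75th percentile scaling it was 2 of 80 members, where 2648 of all 15326 genes were. For the other settings the share over all genes is not given, so a larger count is not read as more evidence of a fall. Rpl4 exceeded 40000 on the 4 arrays of replicate number 3. The count of genes called higher was 0 in each of these settings and when leaving out 1 sample; among single probes, the second Rpl22 probe was called higher without undifferentiated replicate 2. Rpl39l was called lower in all 26 alternatives that give it 1 value, with differences of -2.86 to -1.52 and limma adjusted p of 4.9e-06 to 0.017. Rps13 turned to -0.60 with the mean of probes and to -1.23 with the second brightest probe or the brightest never over 40000, and Rpl11 turned to -0.85 in the last 2 settings, because another probe then stands for the gene.

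The median difference of the members, -0.0049, was -0.36 with 75th percentile scaling and -0.33 with median scaling, -0.26 without genes over 40000 and -0.27 with the brightest probe never over 40000. Under the 2 scalings the median of all genes was -0.09 and -0.06. Both scalings kept the 73 members that read over 40000 on at least 1 array. Relative to all genes the members' median, -0.0083, was -0.27 under both scalings, 0.0058 without the filter on dim probes, 0.024 with the second brightest probe, 0.034 with every probe, -0.26 without genes over 40000, 0.0078 with technical array 2 only, -0.27 with the brightest probe never over 40000, 0.040 without both samples of replicate number 3 and -0.029 without the array whose header names another array. Leaving out 1 sample it ranged from -0.092 to 0.035. Genes of the mitochondrial ribosome called lower numbered 43 under 75th percentile scaling and 38 under median scaling, against 25. The cause was not tested.

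With a replicate block, 1 member was called lower (Rpl39l, limma adjusted p = 0.0057) and 0 higher. The settings for probes never over 40000, for samples of replicate number 3 and for the doubtful header were chosen after seeing the data. For the 24 genes over 40000 on all 12 arrays a difference may not be measurable; the scanner's saturation level is unknown.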
